A study of Drosophila montana and Drosophila virilis with 10 samples.

Results

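A set of 44 genes, of 15342 counted, had less messenger RNA in cold-acclimated than in control whole flies of Drosophila montana, while the mean ratio in the related species D. virilis stayed near 1. The members were chosen from the measured values. A member had a mean of at least 10 CPM (counts scaled to 1000000 reads on genes) in each species, all 3 acclimated D. montana pools below all 3 control pools, and a ratio of acclimated to control mean, each with 1 CPM added, of 1/1.5 or less. In D. virilis the same ratio had to lie between 1/1.2 and 1.2. The acclimation contrasts of both species therefore defined the set, and their values below are a description.

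The study sequenced mRNA of whole flies on SOLiD instruments in 10 libraries. The D. montana flies were of strain 175OJ8 from Oulanka, Finland, in pools of 10 flies, with 3 pools kept at ambient temperature (controls) and 3 cold acclimated. The D. virilis flies were of strain TOY3F9 from Toyama, Japan, in pools of 20 flies, with 2 control and 2 acclimated pools. The labels give an age after eclosion of 21, 22 and 23 days for control D. montana and of 24, 25 and 26 days for acclimated D. montana, and of 27 and 28 against 29 and 30 days for D. virilis, so acclimation and stated age cannot be told apart. Each species stands for 1 strain, the labels give neither sex nor the temperatures and length of acclimation, and nothing says that pools of a group came from separate cultures, so their spread may be partly technical.

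Cold acclimation is the gain in tolerance of low temperature that insects acquire after a period in mild cold. In drosophilids it is known to involve membrane lipids, ion balance, chaperones and sugar and amino acid metabolism. D. montana is a northern species whose females can pass the winter in a reproductive diapause, and D. virilis is a relative of warmer regions. In whole flies, a lower level of an mRNA can come from fewer cells of the type that makes it or from less of it in each cell, and these cannot be told apart here.

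The genes are known here by FlyBase identifier. The table of gene names used here, of a D. montana assembly, held 0 of the 15342 identifiers, so no member has a name, a role, a position or a sequence in what follows, and the 20 lists of genes of known function, tissue markers included, were not examined. Reads on genes numbered 1518027 to 2235850 in a D. montana library and 650517 to 1316804 in a D. virilis library. The limit for a gene with 0 reads, 3 reads of the total, came to 1.34 to 1.98 CPM in the former and 2.28 to 4.61 CPM in the latter and covers counting error only. Every member had reads in every library, with at least 3 reads in D. montana and 5 in D. virilis, and 3 members had fewer than 10 reads in a library.

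Of 7042 genes with 10 CPM or more in each species, 759 (10.8%) had every acclimated D. montana pool below every control pool. Adding the 1.5-fold limit left 157 genes. Of these, 96 (61.1%) had a D. virilis ratio under 1/1.2, 44 (28.0%) lay between 1/1.2 and 1.2 and are the members, and 17 (10.8%) lay above 1.2. Among all 7042 genes the shares were 39.3%, 41.3% and 19.4%. A D. virilis ratio near 1 was thus less common among the genes lower in D. montana than a lower mean in both species, as counts without a test. By the mirrored limits 219 genes were higher in acclimated D. montana, of which 75 (34.2%) had a D. virilis ratio between 1/1.2 and 1.2.

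**Figure D1:**
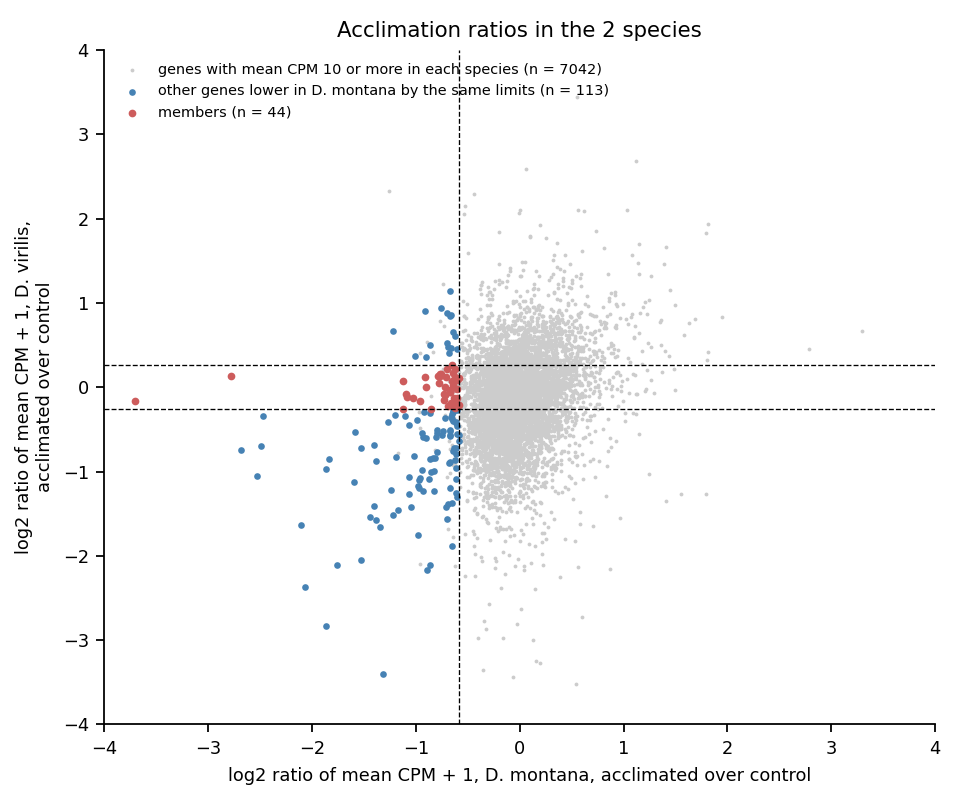
Each point is a gene with a mean of 10 CPM or more in both species, placed by the log2 ratio of acclimated to control mean CPM plus 1 in D. montana (horizontal) and in D. virilis (vertical); 6 of the 7042 genes lie outside the axes. Dashed lines mark 1/1.5 in D. montana and 1/1.2 and 1.2 in D. virilis. The 44 members (red) lie between the horizontal lines, and most of the other 113 genes lower in D. montana (blue) lie below them.

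Together the members took 0.463%, 0.473% and 0.656% of the gene reads in D. montana controls 1, 2 and 3, and 0.303%, 0.296% and 0.286% in acclimated pools 1, 2 and 3. In D. virilis they took 0.435% and 0.380% in the controls and 0.407% and 0.388% in the acclimated pools. The D. montana groups did not overlap, as the rule requires of every member, and the D. virilis groups did. FBgn0202560 supplied 21.1% of the members' reads in D. montana, FBgn0198528 14.5% and FBgn0199208 10.9%. A measure that weights members equally, the median over members of CPM relative to the control mean of the species, was 0.61, 0.57 and 0.61 in the acclimated D. montana pools and 1.03 and 0.92 in those of D. virilis.

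Most members differed by little more than the rule asks. The control mean exceeded the acclimated mean in D. montana by a median of 1.62-fold (quartiles 1.56 and 1.74, range 1.5 to 13.0), and 21 of the 44 lay under 1.6-fold. At least a 2-fold difference was seen for 7 members and at least 4-fold for 2. The gap between groups was narrow as well, with the lowest control pool a median of 1.21 times the highest acclimated pool. It was at least 1.5 times for 5 members and under 1.1 times for 11.

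**Figure D2:**
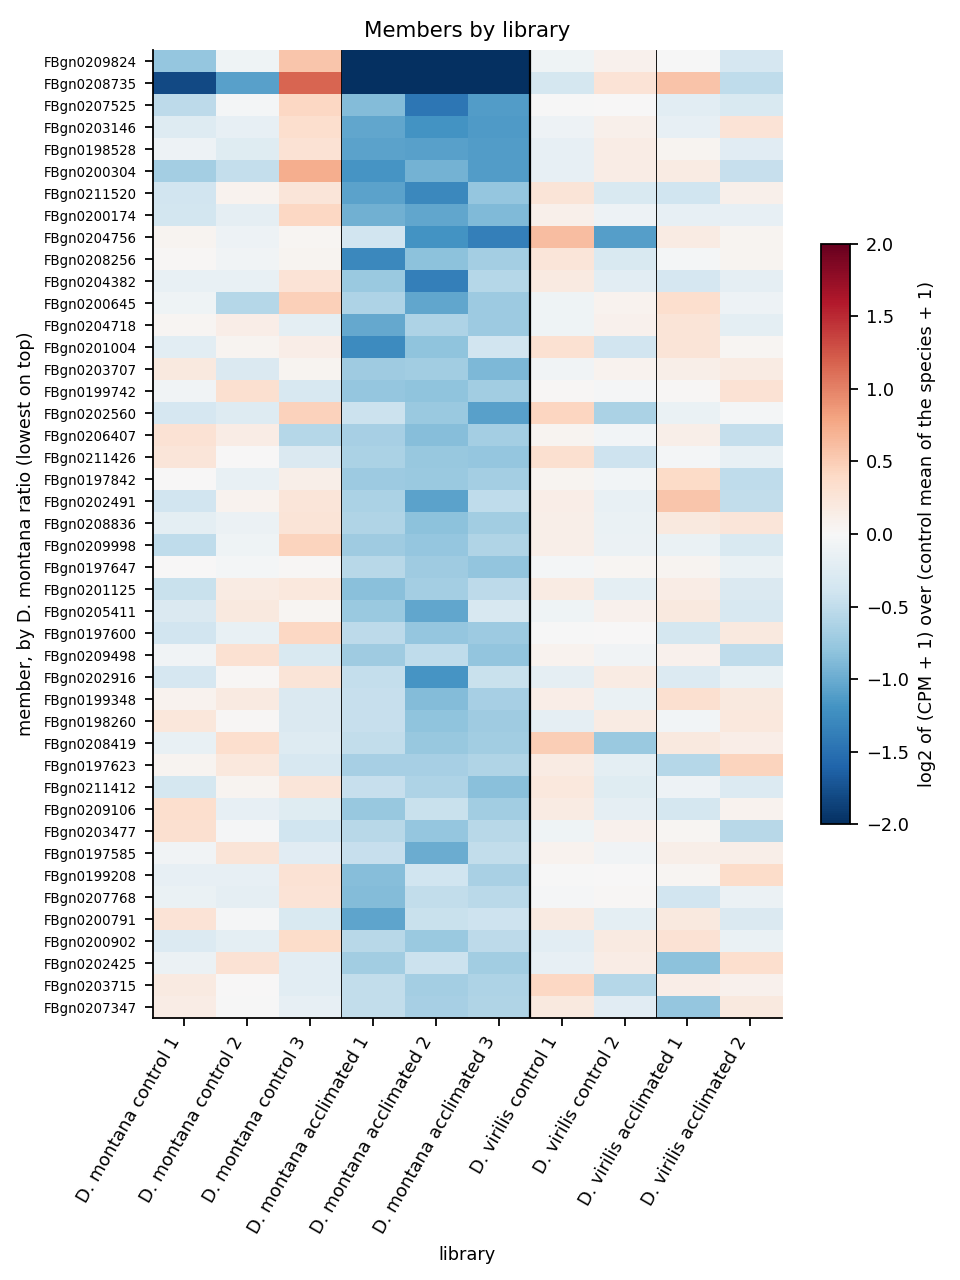
Rows are the 44 members in order of their D. montana ratio and columns the 10 libraries; colour gives log2 of CPM plus 1 over the control mean of the same species plus 1, with values beyond 2 in either direction drawn in the end colours. The acclimated D. montana columns are blue in every row, darkest in the first 2 rows, whereas the D. virilis columns hold both colours.

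FBgn0209824 had the largest difference. It stood at 36.4, 59.3 and 92.7 CPM in D. montana controls 1, 2 and 3 and at 5.54, 1.66 and 4.47 CPM in acclimated pools 1, 2 and 3, the latter on 10, 3 and 10 reads. In D. virilis it stood at 135 and 152 CPM in the controls and 143 and 114 CPM in the acclimated pools. The D. montana groups were far apart, the lowest control being 6.57 times the highest acclimated pool, while the D. virilis groups overlapped. The means were 62.8 ± 28.3 against 3.89 ± 2.0 CPM (SD, n = 3 each) in D. montana, a 13.0-fold difference, and 144 ± 12.1 against 128 ± 20.4 CPM (SD, n = 2 each) in D. virilis, a ratio of 0.89.

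FBgn0208735 came next, and its size rested on 1 library. Its levels in the D. montana controls were 58.9, 97.5 and 469.9 CPM, against 34.3, 18.3 and 35.8 CPM in the acclimated pools. In D. virilis they were 32.3 and 50.4 CPM against 61.8 and 28.9 CPM. Control 3 held 6.01 times the mean of controls 1 and 2, so the difference of 6.89-fold became 2.60-fold without that pool, with the groups still apart. The control mean of 209 CPM had an SD of 227 CPM (n = 3).

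The next 4 members were a little over 2-fold lower. FBgn0207525 was at 28.3, 40.2 and 54.9 CPM in the D. montana controls and at 22.1, 14.4 and 18.3 CPM after acclimation. Its D. virilis pools did not overlap, with 79.9 and 81.6 CPM in the controls and 69.9 and 65.3 CPM after acclimation. Its ratio of 0.84 in D. virilis was inside the limit of 1/1.2 but pointed the same way as in D. montana.

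FBgn0203146 was at 125, 133 and 189 CPM in the D. montana controls and at 72.0, 64.3 and 67.1 CPM in the acclimated pools. In D. virilis it was at 63.0 and 73.0 CPM against 60.8 and 82.0 CPM. Its acclimated level in D. montana, 67.8 ± 3.89 CPM (SD, n = 3), was therefore close to its D. virilis levels, 68.0 ± 7.04 CPM in controls and 71.4 ± 15.0 CPM in acclimated flies (SD, n = 2 each), and the D. montana controls stood above all other pools.

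FBgn0198528 was at 763, 692 and 999 CPM in the D. montana controls and at a nearly constant 389.7, 383 and 377 CPM after acclimation, a 2.13-fold difference. In D. virilis it was at 209 and 258 CPM against 242 and 198 CPM. The lowest D. montana control was 1.78 times the highest acclimated pool, and the D. virilis groups overlapped. This gene and FBgn0202560 had the highest mean CPM of the members over all libraries.

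FBgn0200304 was at 48.5, 56.0 and 129.9 CPM in the D. montana controls and at 33.8, 39.9 and 35.3 CPM after acclimation, and at 61.5 and 77.3 against 78.0 and 50.1 CPM in D. virilis. Its controls 1 and 2 were only a little above the acclimated pools, and without control 3 the 2.12-fold difference became 1.43-fold, under the limit of the rule.

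FBgn0202560 had wide spreads in both species. It was at 862, 909 and 1493 CPM in the D. montana controls and at 803, 649 and 513 CPM after acclimation. In D. virilis it was at 687 and 328 CPM against 465 and 497 CPM. The D. montana groups were close to touching, and both D. virilis acclimated pools lay between the D. virilis controls. Its ratio of 1.66-fold in D. montana became 1.35-fold without control 3.

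**Figure D3:**
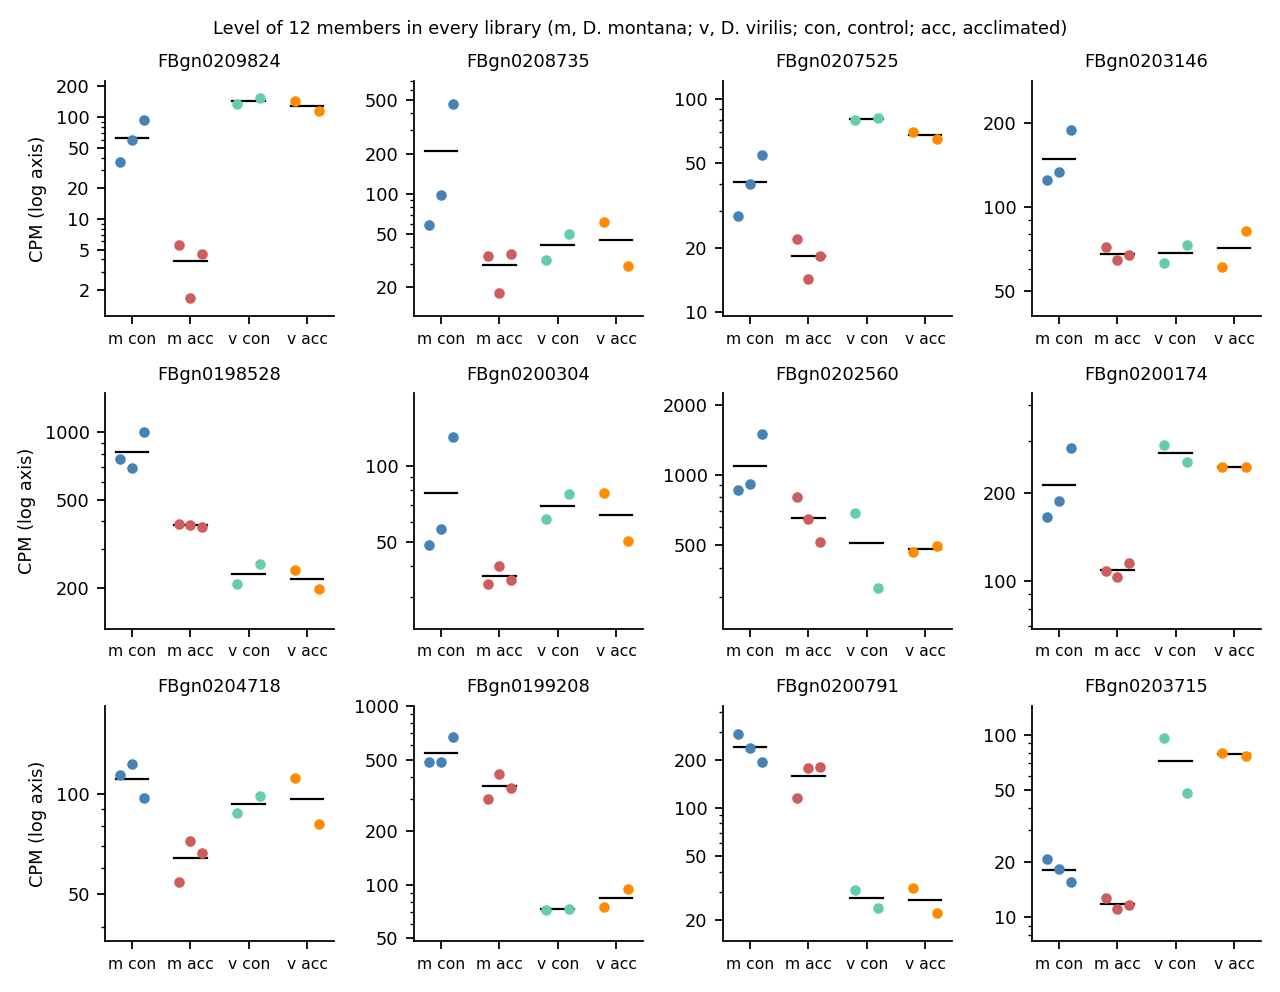
Points are the level in CPM of 12 members in each library, on a log axis that differs between panels, and lines are group means of 3 (D. montana) or 2 (D. virilis) pools. Control 3 of D. montana is the point far above the others for FBgn0208735, FBgn0200304 and FBgn0202560, while FBgn0198528, FBgn0200174 and FBgn0204718 have groups well apart in D. montana and overlapping or close in D. virilis.

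Near the limit of the rule, FBgn0203715 and FBgn0207347 were each 1.5-fold lower in acclimated D. montana. FBgn0203715 was at 20.8, 18.4 and 15.6 CPM in the controls and at 12.7, 11.1 and 11.6 CPM after acclimation. FBgn0207347 was at 84.3, 75.8 and 68.0 against 53.7, 47.6 and 49.6 CPM. In both, control 1 was the highest pool and the groups were apart by more than the range of the acclimated pools. Just outside, FBgn0199802 and FBgn0205079 were 1.496-fold and 1.492-fold lower, under the 1.5-fold limit, with D. virilis ratios of 1.14 and 1.08. FBgn0204611 and FBgn0204074 met the D. montana limits, at 1.52-fold and 1.56-fold, but had D. virilis ratios of 0.829 and 0.824, just under 1/1.2. The values on either side of each limit are thus alike, and 67 more genes met every condition except the minimum of 10 CPM.

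Control 3 was the D. montana control that set many of the members' means. It was the highest control for 25 of the 44 members (56.8%), against 27.7% of the 7042 genes, and at least 1.5 times the mean of controls 1 and 2 for 10 members (22.7%), against 5.95% of the 7042 genes and 21.7% of the 157 genes lower in D. montana. The rule favours genes with a high control mean, so this describes the members and is not read further. Without control 3, 31 members were still at least 1.5-fold lower and 43 at least 1.3-fold, and the median over members was 1.64-fold. For the other 19 members control 1 was highest in 10 and control 2 in 9. Control 3 was the lowest control for 16 members (36.4%, against 48.3% of the 7042 genes). Their differences are larger without it by arithmetic alone.

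**Figure D4:**
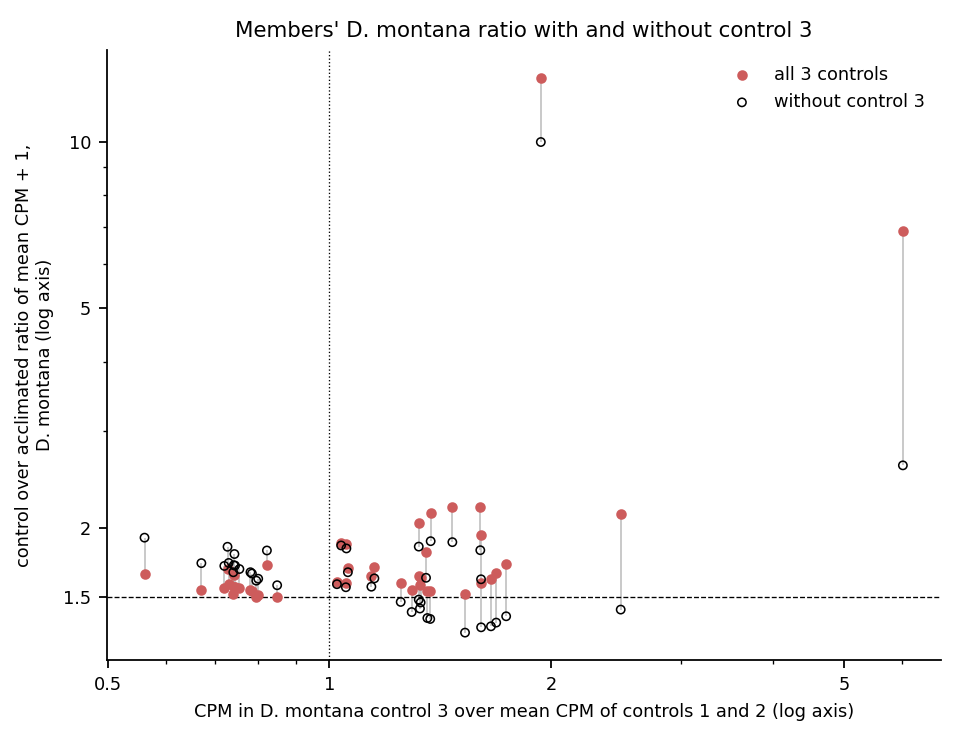
Each member is drawn as the ratio of control to acclimated mean CPM plus 1 in D. montana with all 3 controls (red) and without control 3 (open), against the level in control 3 relative to the mean of controls 1 and 2, both axes being log axes. The dashed line marks 1.5-fold. FBgn0208735, at 6.01 on the horizontal axis, moves from 6.89-fold to 2.60-fold, and 13 members pass below the line.

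The acclimated D. montana pools of the members were more alike than the controls. The coefficient of variation was larger among the controls than among the acclimated pools for 33 of the 44 members (75.0%), against 55.1% of the 7042 genes. Its median was 20.0% in the controls and 11.8% in the acclimated pools, where all 7042 genes had 15.1% and 13.5%. In D. virilis the members' medians were 14.6% and 15.0% (14.7% and 18.2% for all genes). The spread between D. montana pools entered the rule, since groups may not overlap, so these values carry no test.

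In D. virilis the acclimated and control pools overlapped for 35 of the 44 members. Both acclimated pools were below both controls for 4 members (9.09%, against 31.0% of the 7042 genes). They were above both for 5 (11.4%, against 15.3%). The limit on the D. virilis ratio favours overlap, so lower shares than among all genes follow from the rule. The 9 members without overlap are 20.5% of the set, where 13.7% of the 2908 genes with a ratio between 1/1.2 and 1.2 had none, a difference not tested. The ratio was under 1 for 24 members and above 1 for 20, with a median of 0.97 against 0.92 for all 7042 genes.

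The scale moves this comparison. Over all genes tested in D. virilis the median log2 ratio was −0.12 in CPM of gene reads and 0.03 with trimmed-mean (TMM) scaling, while in D. montana it was −0.04 and −0.03. On the TMM scale 34 of the 44 members had a D. virilis ratio above 1 and 13 were above 1.2, and 40 were still at 1/1.5 or less in D. montana. The share of all genes above these D. virilis limits on that scale was not counted. The statement that the members were level in D. virilis therefore holds for CPM of gene reads. Relative to the median gene of that species they were slightly higher after acclimation. The range of 1/1.2 to 1.2 lies around 1, while the median D. virilis ratio of all 7042 genes was 0.92. The rule thus favours such a position, and nothing is read from it.

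The fits over all genes set the label against the error. In D. montana, edgeR's quasi-likelihood test called 8 of the 44 members lower at a Benjamini-Hochberg adjusted p under 0.05, where it called 0.515% of the 9315 genes tested lower. In D. virilis it called 0 of the 44, where it called 0.312% of 7692 genes in either direction. At an unadjusted p under 0.05 the edgeR counts were 0 of the 44 and 986 of the 7692. With limma-voom 0 members and 52 of all genes were called. With DESeq2, which gave 21 members no adjusted p, 0 members and 86 of all genes were called. The rule used both contrasts, so nothing is read from these counts. The 8 called members were FBgn0209824, FBgn0208735, FBgn0203146, FBgn0198528, FBgn0200174, FBgn0208256, FBgn0204718 and FBgn0197842. Of these, FBgn0209824, FBgn0198528 and FBgn0203146 were called under each of the 14 alternatives run for that fit. The count of members was 16 without control 1, 4 without control 2 and 10 without control 3. It was 3 without acclimated 1 and 4 without acclimated 2 or acclimated 3. Among all genes, 74 of 9600, 36 of 9602 and 50 of 9516 were called lower without controls 1, 2 and 3. Without acclimated 1, 2 and 3 these were 37 of 9510, 27 of 9563 and 26 of 9506. The count over all genes thus moved as well.

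The difference between the species was also fitted over all genes, as an interaction. It is the difference of the contrasts that chose the members, so its calls are a description too and give no independent support. It called 1 member, FBgn0209824, where 0.0815% of 9811 genes were called more negative in D. montana. Subtracting the D. virilis from the D. montana log2 fold change gave −3.97 (SE 0.55). For FBgn0197842 the difference was −0.85, and −1.26 without D. virilis acclimated 2, a fit that leaves 1 acclimated D. virilis pool. The 43 members other than FBgn0209824 did not pass even this comparison, which the choice of members favours. They are not shown to respond differently in the 2 species. The differences were below 0 for all 44 members, a direction that the rule fixes. The 95% interval of the difference lay below 0 for 24 of them, a count that the choice of members also favours. Among all 9811 genes, 1117 had an unadjusted p under 0.05 in this edgeR test, in either direction.

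The D. virilis intervals were wide. That species had 2 pools a group and fewer gene reads. The common coefficient of variation that edgeR fitted between pools was 25.1%, against 15.3% in D. montana. The part of each in the width was not tested. The 95% interval of the D. virilis change held a 1.5-fold decrease for 27 of the 44 members, and for 18 it held the member's own D. montana change. These shares were not counted over all genes. For FBgn0204756, with 20 and 8 reads in the D. virilis controls and 22 and 27 in the acclimated pools, the interval ran from −1.07 to 1.70 in log2 units around 0.31, and its D. montana change was −0.98. For FBgn0198528, the interval was −0.50 to 0.56 and the D. montana change −1.07. For FBgn0208836 and FBgn0199208 the intervals, −0.14 to 0.84 and −0.24 to 0.92, held no 1.5-fold decrease.

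**Figure D5:**
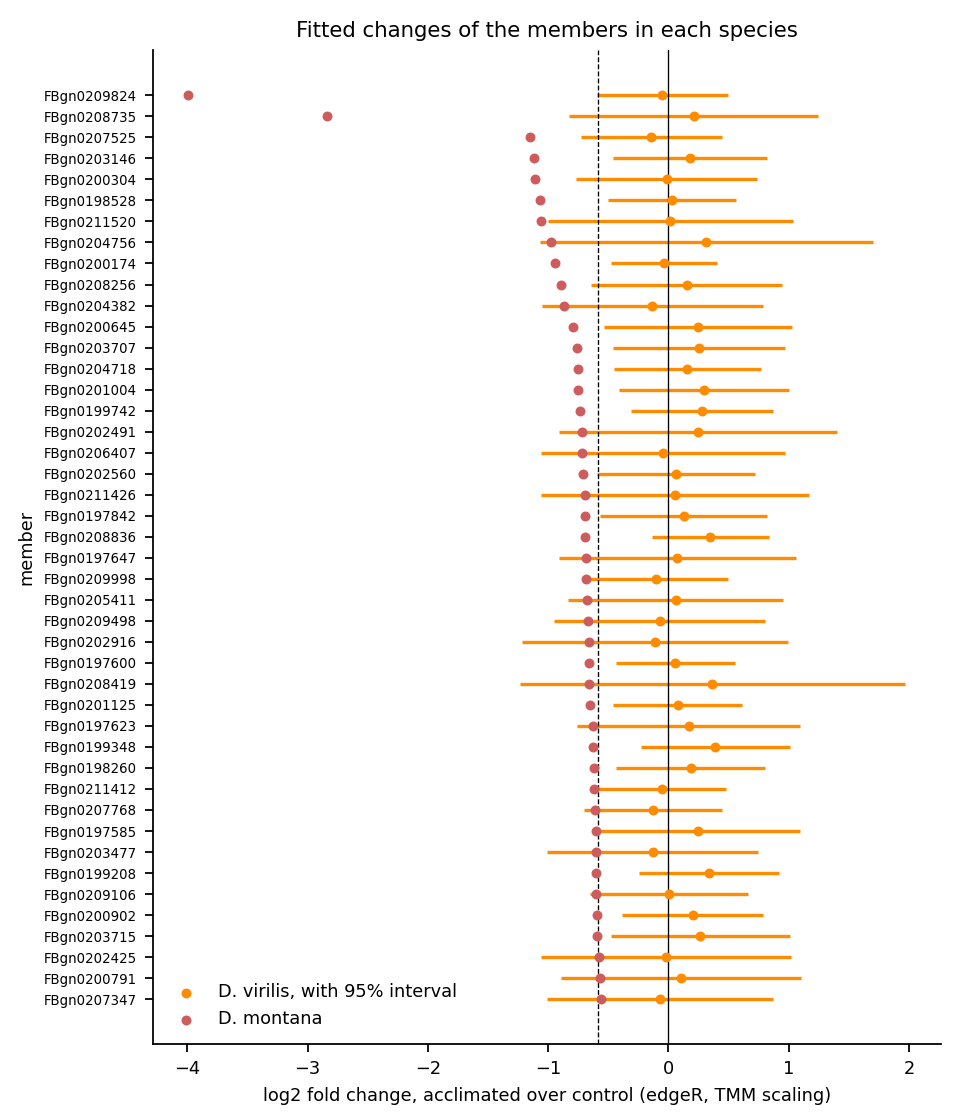
Log2 fold changes with acclimation from edgeR fits of each species, TMM scaled, for the 44 members: D. montana (red) and D. virilis (orange, with its 95% interval). The dashed line marks a 1.5-fold decrease, which the interval holds for 27 members, and the D. montana point lies inside the D. virilis interval for 18.

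Some members also stood at different levels in the 2 species. Each comparison is of the same gene in CPM between species, and species cannot be told apart there from strain, pool size, instrument or how well reads match the annotation. The D. virilis mean over all 4 pools was above both D. montana group means for 25 members, between them for 12 and below both for 7. Among all 7042 genes the shares were 41.6%, 10.1% and 48.4%, against 56.8%, 27.3% and 15.9% of the members. The rule selects a wide gap between the D. montana means, so a larger share between them follows from it.

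Control means of the 2 species lay within 1.5-fold of each other for 24 of the 44 members (54.5%, against 48.0% of all genes), and acclimated means for 10 (22.7%, against 43.1%). After acclimation the D. virilis mean was the higher one for 37 members (84.1%), against 68.2% of the 157 genes lower in D. montana and 43.5% of all genes. In controls it was the higher one for 24 members (54.5%), against 49.0% and 48.2%. A lower D. montana mean after acclimation beside a level D. virilis mean is what the rule selects, so the larger share after acclimation follows from it. FBgn0209824 was 2.29 times as high in D. virilis as in D. montana controls, and 33.0 times as high after acclimation.

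The widest gaps between species ran in both directions. FBgn0200791 was 8.84 times as high in D. montana as in D. virilis controls, with 290.4, 236 and 195 CPM in the D. montana controls, 115, 177 and 181 CPM in the acclimated pools, and 22.0 to 31.4 CPM in D. virilis. FBgn0199208 was 7.53 times as high, with 487, 486 and 667 CPM against 302, 414 and 348 CPM in D. montana and 72.3 to 94.2 CPM in D. virilis. Both stayed above every D. virilis pool after acclimation.

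In the other direction, FBgn0203715 was 3.97 times and FBgn0201125 3.95 times as high in D. virilis as in D. montana controls. FBgn0201125 was at 50.2, 77.1 and 79.6 CPM in the D. montana controls and 38.2, 42.7 and 47.9 CPM after acclimation, against 222 to 306 CPM in D. virilis. In all, 7 members (15.9%) were more than 2 times as high in D. virilis as in D. montana controls, against 10.4% of all genes, and 7 (15.9%) were at less than 1/2 of the D. montana level, against 19.0%. Gaps of this size were thus about as common among all genes, with no test made.

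Membership depended on single libraries. Of the 44 members, 5 stayed in the set whichever library was left out (FBgn0197647, FBgn0198528, FBgn0200174, FBgn0203707 and FBgn0204718), and FBgn0198528, FBgn0200174 and FBgn0204718 did so under every alternative tried. Without D. montana control 3 the rule gave 84 genes, 31 of them members. Without any other single D. montana library it gave 51 to 65 genes. Fewer pools then have to stay apart, so more genes can meet the rule. FBgn0200174 was at 165, 188 and 284 CPM in the D. montana controls and at 108, 103 and 115 CPM after acclimation, and at 292 and 254 against 244 and 245 CPM in D. virilis. FBgn0204718 was at 114, 123 and 97.2 CPM against 54.3, 72.0 and 66.6 CPM in D. montana, and at 87.6 and 98.7 against 111 and 81.3 CPM in D. virilis. The lowest D. montana control was 1.44 times the highest acclimated pool for FBgn0200174 and 1.35 times for FBgn0204718. In D. virilis the pools of FBgn0200174 did not overlap and those of FBgn0204718 did. FBgn0209824 left the set without D. virilis acclimated 1, where its D. virilis ratio was 0.793. The D. virilis ratio of 37 members left the range of 1/1.2 to 1.2 when some D. virilis library was left out. The share among all genes with a ratio in that range was not counted, so this is not read as a trait of the members.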

How the data were processed

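Whole-fly mRNA was sequenced on SOLiD instruments. The files as deposited give a raw count of reads for each gene identifier, and the submitters' processing notes name HTSeq. Aligner, build, annotation and strand setting are not stated, so genes that overlap or have near-identical copies are uncertain. The last 5 lines of each file name no gene and were left out: reads placed more than once made up 18.4% to 23.8% of the reads in D. montana files and 75.6% to 83.4% in D. virilis files, and reads outside genes 53.1% to 56.6% and 8.86% to 14.9%.

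CPM here is the count times 1000000 over the sum of gene rows. R 4.3.3 was used. Tests were those of edgeR 4.0.16 and, for voom, limma 3.58.1, on the unaltered deposited counts with TMM scaling, the default expression filter by group and Benjamini-Hochberg adjustment over all tested genes. Each species was fitted alone, and the difference between species was the interaction in a fit of all 10 libraries. All 44 members passed the filters. Standard errors are the unshrunken log2 fold change over the square root of F. The scripts were checked on simulated counts. DESeq2 1.42.0, limma-voom, other scalings, filters, a replicate block and each library left out were the alternatives. The 20 gene lists could not be matched to identifiers.

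Genes named were the 6 with the lowest D. montana ratio, the 2 most abundant, the 2 nearest the limit, those called in the interaction and 2 just outside each limit; the others named were chosen after their values were seen. Members, lists and tests were chosen with earlier results of these data known. Replicates of a group differed by more than counting noise (chi-square per degree of freedom 3.78 to 9.45). Same-numbered D. montana pools did not deviate together (r of −0.23, −0.12 and −0.13). In D. virilis r was −0.045, but with 2 pools a group the deviations mirror each other and cannot decide. No pairing by number was thus seen, and a pairing by culture or batch was not tested.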

Additional observations from a re-analysis of the deposited data

Results flagged for a closer look

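FBgn0209824 passed the threshold of the interaction test between acclimation and species. The gene was chosen on the same values, for a low D. montana and a level D. virilis ratio, so this is a description and no independent evidence. Its log2 fold change in D. montana less that in D. virilis was -3.97. Strain, pool size and stated age also set the species apart.

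Outside the gene counts, reads placed more than once made up 6.49 percentage points more of the reads in acclimated than in control D. virilis libraries, with both acclimated libraries above both controls. Its part in the D. virilis ratios of the members was not tested.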

How the results depend on the processing

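The number of members called lower in D. montana was 8, where 48 of 9315 genes were called lower. With no expression filter it was 13, where 82 of 14680 genes were. Leaving out 1 library gave 3 to 16 members, and 26 to 74 genes in all. Every member kept a negative change under each alternative. The number of members called in the interaction was 1, where 8 of 9811 genes were called more negative in D. montana. With no expression filter it was 3, where 36 of 14741 genes were. With 1 D. montana library left out it stayed at 1, where 5 to 12 genes were. Differences of FBgn0202425 and FBgn0207347 turned positive without D. virilis acclimated 2, and over the fits with 1 library left out ran from -1.09 to 0.11 and from -0.98 to 0.040. No member was called in D. virilis under any alternative, although DESeq2 gave 21 of them no adjusted p. The rule gave 44 members, and 34 to 84 with 1 library left out, the 84 without D. montana control 3. With TMM-scaled CPM it gave 44, of which 27 were the same genes. Over all genes the called counts in either direction were 156 for D. montana, 24 for D. virilis and 22 for the interaction. With no expression filter they were 248, 398 and 80, with at least 1 CPM 176, 157 and 50, with DESeq2 181, 86 and 56, with limma-voom 143, 52 and 9, and with library sizes without the 20 most abundant genes 187, 19 and 35. With 1 library left out they ran from 72 to 285, 4 to 214 and 14 to 194. The causes were not tested. The replicate block gave 8, 0 and 1 members called, and 155, 42 and 17 genes in all. A D. virilis library held 650517 to 1316804 gene reads, and 5 to 14 of them fell on FBgn0208419, the member with the fewest.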
